A study of Mus musculus with 16 samples.

Results

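Tet1 knockout (KO) cells were set against Tet1 catalytic mutant (MUT) cells on day 3 of differentiation toward anterior neural progenitor cells (antNPCs), which compares loss of the whole TET1 protein with loss of its enzymatic activity alone. The comparison rests on 4 of the 16 ATAC-seq libraries of the series, namely KO lines KO1 and KO15 and MUT lines CM59 and CM69. Open chromatin was defined for each library as its 50000 strongest distinct peak regions, ranked by the deposited −log10 p. Of 80595 consensus regions, 2566 (3.18%) were open in KO1 and KO15 and closed in CM59 and CM69 and are called gained, and 2876 (3.57%) were open in CM59 and CM69 and closed in KO1 and KO15 and are called lost. The other 12 libraries, in groups of 2, were KO cells on day 2, KO cells given 5 µM of the Wnt inhibitor XAV939 (XAV) from day 2 and sampled on day 3, MUT cells on day 2, WT cells given 3 µM of the Wnt activator CHIR99021 (CHIR) and sampled on day 3, and untreated WT cells on day 2 and on day 3. The KO lines carry the Tet1tm1Koh allele in (B6 × 129S6)F1 mouse embryonic stem cells (ESCs) and came from separate blastocysts. The MUT lines are CRISPR-edited clones of a single WT line, WT7, from which CHIR replicate 1 was also grown. All 4 libraries were untreated, and genotype and origin of the line cannot be told apart in this comparison. No group received the vehicle alone.

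TET1 oxidises methylated cytosine in DNA, a step toward demethylation, and it also binds chromatin and recruits repressive complexes independently of that activity. In the embryo, Wnt and Nodal signals induce the primitive streak, from which mesoderm and endoderm arise, while the epiblast that is shielded from these signals becomes neuroectoderm. Wnt signalling acts through β-catenin and the TCF/LEF factors, and T-box factors such as brachyury and EOMES act downstream in the streak.

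The oligonucleotides that made the MUT lines are shown because they define the group. The guide matched the genome at a single position, chr10:62814460-62814482 with its PAM, which is in capitals (mm10, plus strand, opposite to Tet1). It lies in exon 11 of the Tet1-206 transcript and in exon 9 of Tet1-201. The donor of 95 bases covers chr10:62814427-62814521, and its capitals mark the 3 bases that differ from mm10, T41G, G48A and G55A, counted from 1 at the 5′ end of the donor.
Guide: gtgaatgtccttgtgagaatGGG
Donor: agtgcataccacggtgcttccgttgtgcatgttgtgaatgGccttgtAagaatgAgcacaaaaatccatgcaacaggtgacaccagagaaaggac

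Gained regions are represented by 3 of the strongest outside chromosome Y and by a region upstream of the organizer gene Gsc, each as the central 200 bases on the plus strand of mm10. Capitals mark matches, on either strand, to the TCF/LEF sequence ATCAAAG, the T-box sequence GGTGTGA or the forkhead sequence TGTTTAC. Over windows of this length, ATCAAAG was found in 5.81% of gained, 2.64% of lost and 3.54% of all regions, GGTGTGA in 10.3%, 2.96% and 4.27%, and TGTTTAC in 7.13%, 2.16% and 2.60%, so most gained regions held none of them, as at Ctnnd2. Windows of gained regions near Auts2, Lhx1 and Evx1, which are not shown, held none of them either. A window near Foxa2, also not shown, held a TCF/LEF match.
Near Lrmda, chr14:22204024-22204223: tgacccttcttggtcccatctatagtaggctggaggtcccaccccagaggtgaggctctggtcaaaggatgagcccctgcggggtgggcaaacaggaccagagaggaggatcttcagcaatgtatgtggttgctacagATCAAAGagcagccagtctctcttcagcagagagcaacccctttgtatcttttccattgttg
Near Zfp326, chr5:106056860-106057059: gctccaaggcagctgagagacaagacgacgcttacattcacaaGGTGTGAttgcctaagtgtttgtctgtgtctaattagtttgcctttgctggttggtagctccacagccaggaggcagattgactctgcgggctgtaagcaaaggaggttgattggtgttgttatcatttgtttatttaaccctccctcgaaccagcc
Near Ctnnd2, chr15:31036988-31037187: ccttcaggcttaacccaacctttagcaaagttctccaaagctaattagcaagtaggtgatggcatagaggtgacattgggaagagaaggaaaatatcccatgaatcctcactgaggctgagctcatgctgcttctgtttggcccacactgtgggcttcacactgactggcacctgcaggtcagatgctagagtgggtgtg
Upstream of Gsc, chr12:104486278-104486477: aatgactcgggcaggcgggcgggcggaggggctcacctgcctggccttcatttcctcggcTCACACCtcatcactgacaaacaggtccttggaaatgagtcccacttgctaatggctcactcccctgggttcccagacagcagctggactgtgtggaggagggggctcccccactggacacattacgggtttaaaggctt

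Lost regions are represented by the third and the fourth strongest, chosen because they hold matches, and by the Tet1 intron region described further on. Capitals mark matches to the TEAD sequence GGAATG, the AP-1 sequence TGANTCA or the SOX sequence ACAAAG. In windows of 200 bp, GGAATG was found in 12.2% of gained, 26.0% of lost and 13.5% of all regions, TGANTCA in 6.63%, 21.1% and 9.29%, and ACAAAG in 18.3%, 22.0% and 15.2%. None of the 3 occurred in the Tet1 window or in the windows of the strongest lost regions, near Aldh8a1 and Hs6st1, which are not shown.
Near Msantd3, chr4:48546893-48547092: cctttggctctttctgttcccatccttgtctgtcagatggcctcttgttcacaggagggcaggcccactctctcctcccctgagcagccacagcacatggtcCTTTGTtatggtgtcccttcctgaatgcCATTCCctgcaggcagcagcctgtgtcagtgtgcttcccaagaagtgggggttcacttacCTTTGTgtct
Near Dglucy, chr12:100831874-100832073: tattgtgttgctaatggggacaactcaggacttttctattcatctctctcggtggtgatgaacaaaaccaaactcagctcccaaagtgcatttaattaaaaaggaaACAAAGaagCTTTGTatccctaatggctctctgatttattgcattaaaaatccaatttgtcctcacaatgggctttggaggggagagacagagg
Tet1 intron, chr10:62884195-62884394: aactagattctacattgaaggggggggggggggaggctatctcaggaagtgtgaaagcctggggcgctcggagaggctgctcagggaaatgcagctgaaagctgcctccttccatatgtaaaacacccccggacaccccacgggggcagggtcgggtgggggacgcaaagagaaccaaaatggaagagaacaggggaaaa

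The deposited lists held 164351 distinct regions in KO1 and 135359 in KO15, against 141026 in CM59 and 162327 in CM69. KO15 had the fewest of all 16 libraries, and its −log10 p at rank 50000 was 6.84, against 12.8 in KO1, 10.9 in CM59 and 11.2 in CM69. Read depth is unknown. Promoters of cell type markers were mostly open in both genotypes. Of 29 neuroectoderm genes with a promoter region 25 and 27 were open in KO1 and KO15 and 28 and 27 in CM59 and CM69, and of 19 primitive streak genes 18 and 17 were open in KO and 16 and 16 in MUT. Of 11 fibroblast genes, which these cells should not express, 9 and 10 had an open promoter in KO and 10 and 10 in MUT, so an open promoter did not identify a cell type here.

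The MUT libraries lacked peaks on part of chromosome Y, although the study's methods give the ESC lines as male. Of 24 consensus regions on chromosome Y, 10 lie in its first 2 Mb, among them the promoters of Ddx3y and Uty and regions toward Uba1y and Zfy1. In none of these 10 did any of the 4 MUT libraries, of either day, hold a deposited peak. In the 12 other libraries 5 to 9 of the 10 were open, with 8 in KO1 and 9 in KO15 on day 3, and CHIR replicate 1, from the parental line WT7, was among those 12. The 14 remaining Y regions, near the far end of the chromosome, were open in 11 and 14 of 14 cases in KO1 and KO15 and in 11 and 13 in CM59 and CM69. All 7 gained regions on Y fell in the first 2 Mb, and 0 Y regions were lost. Without chromosome Y the counts were 2559 gained and 2876 lost, an alternative chosen after the data were seen. What part the missing Y signal has in the other differences was not tested.

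KO and MUT differed at more regions than libraries of mixed genotype did. The 4 mixed pairings, which set 1 KO and 1 MUT library against the others, gave 1169 regions open in KO1 and CM59 alone, 1089 in KO1 and CM69, 971 in KO15 and CM59 and 1087 in KO15 and CM69. The gained count was 2.20 times and the lost count 2.46 times the highest of these, and gained regions made up 47.2% of all calls. In all, 37007 regions (45.9%) were open in all 4 libraries. An exact permutation test of 2 libraries against 2 cannot go below a p of 0.333, so the counts carry no p.

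**Figure D1:**
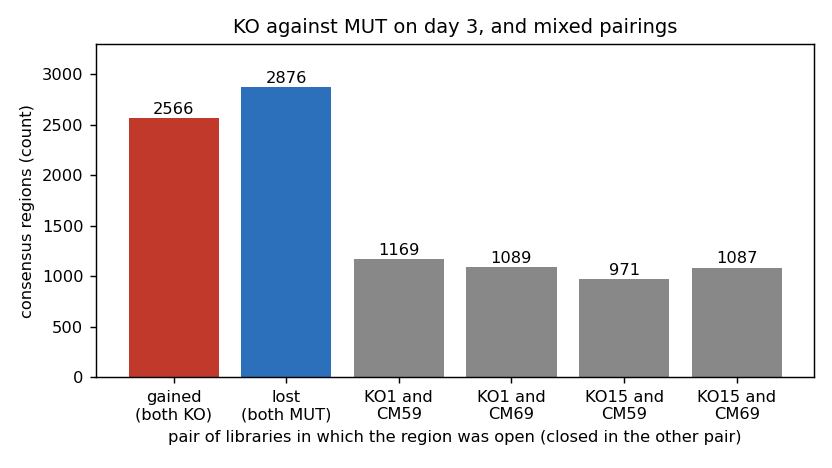
Number of consensus regions (y axis) open in the named pair of day 3 libraries and closed in the other pair; red is KO against MUT, blue the reverse, grey the mixed pairings. The 2566 gained and 2876 lost regions exceed the mixed counts of 971 to 1169.

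The Jaccard index of the kept regions was 0.657 between both KO libraries and 0.708 between both MUT libraries, while KO with MUT gave 0.635 to 0.667. The highest of these mixed values, KO1 with CM59, was above that within KO. The excess of calls over mixed pairings did not hold when all regions reaching a −log10 q of 2 were kept, as KO1 with CM59 then gave 7451 regions and KO1 with CM69 7331, against 3519 gained and 6603 lost.

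Most lost regions kept a weak peak in KO cells, whereas a larger part of the gained regions had no peak at all in MUT cells. Of the gained regions, 245 (9.55%) had no deposited peak in either MUT library, and 33 of the lost regions (1.15%) had none in either KO library. With this definition of closed, mixed pairings gave 7, 1, 2 and 0 regions. Just outside the cut at rank 50000, 625 gained regions had their best MUT peak between ranks 50001 and 55000, and 791 lost regions had their best KO peak there. On the inner side, the weaker of the 2 KO peaks ranked beyond 45000 at 941 gained regions, and the weaker of the 2 MUT peaks did so at 1155 lost regions. The calls are thus mostly shifts in rank, with a smaller group that is present or absent.

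In libraries that took no part in the calls, the gained regions were mostly closed without treatment and were open most often in CHIR-treated WT cells. CHIR replicates 1 and 2 had 48.3% and 45.8% of the gained regions open. The 6 untreated WT and MUT libraries of other groups had 17.7% to 21.6%, and the values did not overlap. These 6 were WT70 and WT72 on day 2 and on day 3 and CM59 and CM69 on day 2. Lines thus repeat and days are mixed, while CHIR libraries are of day 3 only and the MUT lines also made the calls. The test below treats the libraries as independent, which they are not. The means were 47.0% ± 1.79 (SD, n = 2) and 19.6% ± 1.44 (SD, n = 6), a difference of 27.4 percentage points (two-sided exact permutation p = 0.0357, the smallest that 28 splits allow, adjusted p = 0.0476 over 4 tests). The difference depended on which libraries made the calls and was 14.5 without KO1, 13.5 without CM69, 17.8 without CM59 and 48.2 where closed meant no deposited peak, at the same p.

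Lost regions had the opposite pattern. CHIR replicates 1 and 2 had 19.7% and 20.9% of them open, against 49.7% to 63.1% in the 6 untreated libraries, and the values again did not overlap. The difference was −35.6 percentage points (exact permutation p = 0.0357, adjusted p = 0.0476), under the same limits of line and day. Regions of the mixed pairings were open at 33.6% with CHIR, against 46.8% in untreated WT cells on day 3, so with CHIR the gained regions lay above and the lost regions below the mixed ones. The CHIR lines, WT7 and WT34, are not the untreated WT lines, WT70 and WT72, and line and treatment cannot be told apart. Whether WT70 and WT72 are mock-transfected clones, which the study made beside the MUT lines, is not given in the labels.

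The other KO-line libraries differed less from the WT and MUT libraries. KO cells on day 2 had 24.4% and 20.8% and XAV-treated KO cells on day 3 had 25.5% and 25.7% of the gained regions open. The mean over these 4 libraries was 24.1% ± 2.27 (SD, n = 4), against 19.6% in the 6 untreated WT and MUT libraries, a difference of 4.45 points (exact permutation p = 0.00952 over 210 splits, adjusted p = 0.0381). This call was lost without CM59 (exact p = 0.0524), with −log10 q of at least 2 (exact p = 0.381) and with closed meaning no peak (exact p = 0.414). Of the lost regions, 48.7% were open in the KO-line libraries and 56.0% in the others, a difference of −7.24 points that missed the threshold (exact p = 0.0667, adjusted p = 0.0667). These libraries share their lines with the calls, and libraries of the same line are not independent. The p-values treat all libraries as exchangeable, so they do not measure the spread between lines.

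**Figure D2:**
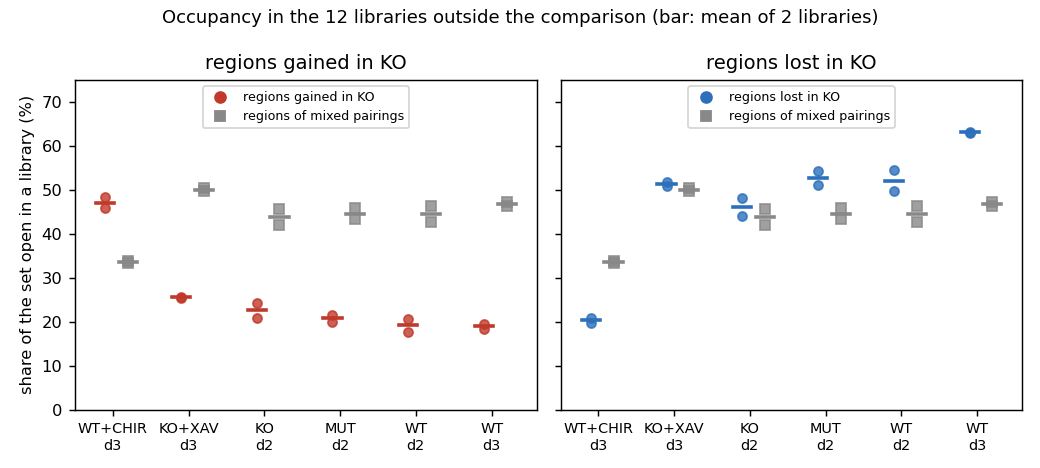
Share of gained regions (left, red) and lost regions (right, blue) that was open in each library outside the comparison (y axis, percent), with regions of the mixed pairings in grey; points are libraries, bars the mean of 2. Gained regions reach 47.0% with CHIR and lie between 18.98% and 25.6% in the other groups, while lost regions are at 20.3% with CHIR and between 46.1% and 63.1% elsewhere.

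Within day 3, gained regions were open at 47.0% with CHIR and at 25.6% in XAV-treated KO cells, against 18.98% in untreated WT cells. Lost regions were open at 20.3% with CHIR and at 51.3% with XAV, against 63.1% in WT cells on day 3. With 2 libraries against 2 these values carry no test. Within day 2, gained regions were open at 22.6% in KO, 20.8% in MUT and 19.2% in WT cells (KO against both others, exact permutation p = 0.2), and lost regions at 46.1%, 52.7% and 52.1% (exact permutation p = 0.0667, the smallest that this split allows). On day 2, KO against MUT gave 1363 gained (1.69%) and 1467 lost (1.82%) of all regions. Of the regions gained on day 3, 54 (2.10%) had the same call on day 2 and 35 (1.36%) the opposite one, and of those lost on day 3, 121 (4.21%) had the same and 40 (1.39%) the opposite call. Of the gained regions 1642 (64.0%) were open in none of the 4 KO and MUT libraries of day 2, 1838 (71.6%) in neither WT library of day 3 and 1672 (65.2%) in neither XAV-treated library. With CHIR, 731 (28.5%) were open in both libraries and in neither WT library of day 3. Of the lost regions, 1369 (47.6%) were open in both WT libraries of day 3, and 953 (33.1%) were also closed in both CHIR libraries. Of the regions of the mixed pairings, 34.7% were open in neither WT library of day 3 and 28.2% in both. In XAV-treated cells 35.3% of them were open in neither library. With CHIR 22.5% of them were open in both libraries and 55.3% in neither. Shares of the mixed pairings were not computed for classes that combine groups.

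Among the gene lists, regulators of the primitive streak had the highest share of gained regions. Of 164 regions assigned to the 19 streak genes, 21 (12.8%) were gained and 5 (3.05%) lost, while over all 70851 assigned regions 2.93% were gained and 3.34% lost. Gained regions lay at 11 of the 19 genes, and 11 of the 21 regions were open in both CHIR libraries, as were 997 (38.9%) of all 2566 gained regions. The share of gained regions exceeded that of lost regions for this list in all 13 alternative settings, the difference lying between 1.83 and 14.6 points. These shares describe the list and carry no test.

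Foxa2, a forkhead factor of the node and endoderm, had 4 gained and 0 lost regions among 19. At a region 37987 bp upstream (chr2:148084738-148085173), peaks ranked 26335 in KO1 and 14569 in KO15, against 98180 in CM59 and no peak in CM69. The regions 13548 bp and 50469 bp upstream ranked 47474 and 33788 in KO1 and 41290 and 49322 in KO15. The region 13548 bp upstream was without a peak in either MUT library. All 3 upstream regions were open in 0 of the 12 other libraries, CHIR included, while the fourth, 76600 bp downstream, was open in both libraries of every other group except CHIR.

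Gsc, a homeobox gene of the organizer, had 2 gained regions and 1 lost region. The region 28583 bp upstream (chr12:104501732-104502094) ranked 31027 in KO1 and 24493 in KO15, with fold enrichments of 7.92 and 6.88, and no peak in either MUT library. The region 13048 bp upstream, printed above with its T-box match, ranked 20682 and 21079 in KO1 and KO15, against 139518 and 115112 in CM59 and CM69. Both gained regions were open in both CHIR libraries and in no other library outside the comparison. The lost region lay 34812 bp upstream and was open in every WT and MUT library without CHIR, in both XAV-treated libraries and in both KO libraries of day 2.

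Lhx1, a LIM homeobox gene of streak and node, had 3 gained regions between 67576 and 86061 bp upstream. The strongest, at chr11:84592936-84593286, ranked 11707 in KO1 and 23912 in KO15, against 53047 in CM59 and 72626 in CM69. All 3 were open in both CHIR libraries and in no other library outside the comparison, and a region 506 bp from the start site of Lhx1 was lost. Evx1, a homeobox gene of the posterior streak, had its promoter (17 bp from the start site) and a region 19305 bp downstream gained, again open in both CHIR libraries only. The promoter ranked 39661 in KO1 and 43668 in KO15, against 91498 in CM59 and 52099 in CM69. That call lay near the cut, and the fold enrichment of the promoter was 3.09 in KO15 and 3.22 in CM69. The downstream region ranked 17447 in KO1 and 41643 in KO15, against 51867 in CM59 and 105514 in CM69.

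Mesp1, a factor of nascent mesoderm, had a gained region 4351 bp downstream of its start site, with ranks of 32218 and 31620 in KO1 and KO15 and no MUT peak. It was open in both CHIR libraries. T, which encodes brachyury, had a gained region 8524 bp upstream with ranks of 36874 and 42699 in KO1 and KO15, against no peak in CM59 and 115187 in CM69. Nodal, a streak-inducing ligand, had a region 7584 bp upstream with ranks of 34049 and 38461 in KO1 and KO15, against 58368 and 66618 in CM59 and CM69, and neither the T nor the Nodal region was open with CHIR. Cdh2, which encodes N-cadherin, had 4 gained regions of 13, and Noto, Sp5 and Wnt3a had 1 each. Streak genes with lost regions were Gsc, Lhx1, Mesp1, Fgf4 and Tbx6, with 1 each.

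The Wnt pathway list had 15 gained (5.88%) and 4 lost (1.57%) of 255 regions, and 9 of the 15 gained ones were open in both CHIR libraries, against 38.9% of all gained regions. Gained exceeded lost in 12 of 13 settings, the exception being −0.66 points with −log10 q of at least 2. Among antagonists, Dkk1 had a region 87678 bp downstream that ranked 23858 in KO1 and 16848 in KO15, with no peak in either MUT library. Sfrp1 had a region 58921 bp downstream at ranks of 12115 and 17304 in KO1 and KO15, against 94141 and 75545 in CM59 and CM69. Both antagonist regions were open in both CHIR libraries and in neither WT library of day 3.

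Among the transcription factors of the pathway, Lef1, Tcf7l1 and Tcf7l2 had 2 gained regions each. A Tcf7l1 region lay within the gene, 11416 bp upstream of an internal start site. It ranked 18463 in KO1 and 40280 in KO15, against 72408 in CM59 and no peak in CM69. Tcf7l1 is known as a repressor of Wnt targets in mouse ESCs. At Lef1, an activating member of the family, a region 75496 bp upstream ranked 27563 and 41413 in KO1 and KO15, against 82543 in CM59 and no peak in CM69. At Tcf7l2 a region 41244 bp upstream ranked 14512 and 26449 in KO1 and KO15, against 54493 and 155658 in CM59 and CM69. All 3 genes thus had a region that KO cells held at ranks far above those in MUT cells, and the Lef1 and Tcf7l2 regions were open in both CHIR libraries. Ctnnb1, which encodes β-catenin, had a gained region 2038 bp upstream with ranks of 18525 and 27225 in KO1 and KO15, against 84108 and 139302 in CM59 and CM69. Receptors and ligands with a gained region were Fzd7, Lgr5, Rspo3 and Wnt3a, and the Wnt target genes Sp5 and Sp8 had 1 each. Lost regions lay at Fzd7, Lef1, Tcf7l2 and Lrp5, a co-receptor.

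The Nodal and TGF-β list had 8 gained (8.25%) and 3 lost (3.09%) of 97 regions, with gained above lost in 12 of 13 settings and a difference of −0.4 points in the other, −log10 q of at least 2. Cer1, a secreted antagonist of Nodal and BMP, had its promoter gained, 92 bp from the start site. Peaks there ranked 10496 in KO1 and 14130 in KO15, with fold enrichments of 10.2 and 8.53, against rank 99488 in CM59 and no peak in CM69. It was open in both CHIR libraries and in no other library outside the comparison. Lefty1, another Nodal antagonist, had a region 8563 bp upstream at ranks of 44933 and 40513 in KO1 and KO15, without a MUT peak and open in 0 of the other 12 libraries. Smad3 and Smad7, an effector and an inhibitor of the pathway, had 2 gained regions each, and Smad2, another effector, had 1 gained and 1 lost. Lost regions also lay 1220 bp from the start site of Gdf3, a TGF-β family ligand, and near Tdgf1, a Nodal co-receptor.

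The BMP list had 8 gained (7.55%) and 4 lost (3.77%) of 106 regions, but its direction held in only 8 of 13 settings. Bmp2, a ligand, had 3 gained regions, and that 41089 bp downstream ranked 28352 and 24869 in KO1 and KO15, against no peak in CM59 and 111918 in CM69. Bmp7, another ligand, had 2 gained and 3 lost regions of 12. The antagonists divided, with a gained region at Chrd and a lost one at Nog.

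The definitive endoderm list had 10 gained (7.25%) and 2 lost (1.45%) of 138 regions, with gained above lost in all 13 settings, and 1 of the 10 was open in both CHIR libraries, against 38.9% of all gained regions. Foxa2 accounts for 4 of them. Otx2, a homeobox gene of anterior epiblast, endoderm and forebrain, had regions 34410 and 87658 bp upstream that had no MUT peak and were open in 0 of the 12 other libraries, with ranks of 32278 and 40760 in KO1 and of 31636 and 47559 in KO15. Gata6, an endoderm factor, had a region 94284 bp upstream at ranks of 21834 and 42509 in KO1 and KO15 with no MUT peak. Cpm, a carboxypeptidase expressed in endoderm, had adjoining gained regions 64870 and 65221 bp upstream. Prdm1 and Trh had 1 lost region each. The mesoderm list had 2 gained (1.14%) and 3 lost (1.71%) of 175 regions, both shares below those over all genes.

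**Figure D3:**
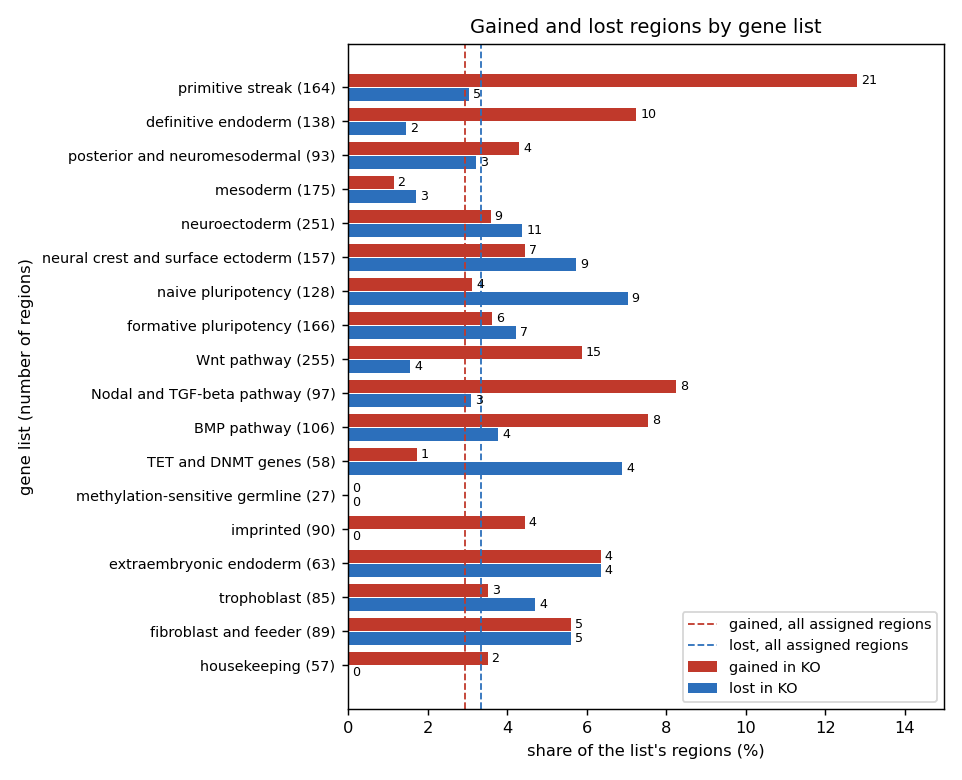
Share of the regions assigned to each gene list (x axis, percent) that was gained (red) or lost (blue) in KO, with counts at the bars and the number of regions in brackets; dashed lines give the share over all assigned regions, 2.93% gained and 3.34% lost. Primitive streak genes reach 12.8% gained and mesoderm genes 1.14%.

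Genes of naive pluripotency had more lost than gained regions, a direction held in 11 of 13 settings. The list had 4 gained (3.13%) and 9 lost (7.03%) of 128 regions, and 9 of the 9 lost regions were open in neither CHIR library, as were 2084 (72.5%) of all 2876 lost regions. Esrrb, a nuclear receptor of naive ESCs, had 2 intronic regions lost, and that 5137 bp downstream of the start site ranked 52073 and 77290 in KO1 and KO15, against 26941 and 41452 in CM59 and CM69. Sox2, needed for pluripotency and neural fate, had 3 lost and 1 gained region. The lost region 3635 bp downstream of its start site had no peak in KO1 or KO15 and ranked 42960 in CM59 and 47146 in CM69. It was open in 0 of the 6 KO-line libraries, in all 4 MUT libraries and in 1 of the 6 WT libraries, CHIR-treated ones included. Fgf4, a growth factor driven by SOX2 and OCT4 in ESCs, had a region 2484 bp downstream without a KO peak, at ranks of 42079 and 42355 in CM59 and CM69. Klf4, Tbx3 and Tdgf1 had 1 lost region each, and Prdm14, Tcl1 and Zfp42 had 1 gained region each.

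The formative list had 6 gained (3.61%) and 7 lost (4.22%) of 166 regions. Lin28a, whose protein binds let-7 precursors in pluripotent cells, lost regions 446 bp and 520 bp from annotated start sites, the first within the gene. That first region ranked 60051 and 51031 in KO1 and KO15, against 21601 and 32852 in CM59 and CM69. Dnmt3a, a de novo DNA methyltransferase, had a lost intronic region 6982 bp upstream of an internal start site. It had no peak in KO1 and rank 72760 in KO15, against 40786 and 26687 in CM59 and CM69. This region was open in both WT libraries of each day and in neither CHIR library.

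The neuroectoderm list had 9 gained (3.59%) and 11 lost (4.38%) of 251 regions, of which Sox2 held 1 and 3 and Otx2 2 gained ones. The promoter of Pax6, an eye field and forebrain factor, was lost, with ranks of 59472 and 75386 in KO1 and KO15, against 30387 and 42120 in CM59 and CM69. The promoter of Wnt1, a midbrain ligand, was lost at ranks of 55926 and 76994 in KO1 and KO15, against 35146 and 34138 in CM59 and CM69. Outside the comparison, the Pax6 promoter was open in both XAV-treated libraries and in 1 of 2 libraries of each other group. The Wnt1 promoter was open in both CHIR libraries, in neither XAV-treated library and in 1 of 2 libraries of each other group. Pax2, a midbrain and kidney factor, had 2 lost regions, and Lhx2, Lhx5 and En2 had 1 each. Sox1, Emx2, En1, Hes5, Pax8 and Zic2 had 1 gained region each.

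Neural crest and surface ectoderm genes had 7 gained (4.46%) and 9 lost (5.73%) of 157 regions. Pax7, a neural crest factor, had 3 gained and 1 lost, of which a gained intronic region 79130 bp from the start site had no MUT peak. Grhl2, an epithelial factor, had 1 gained and 3 lost, Msx2 and Gata3 had 2 lost each, and the Gata3 region 17558 bp downstream ranked 52658 and 82571 in KO1 and KO15, against 13176 and 20281 in CM59 and CM69. That region was open in both WT libraries of each day and in neither CHIR library. Posterior and neuromesodermal genes had 4 gained (4.30%) and 3 lost (3.23%) of 93 regions. A region 18146 bp downstream of Cyp26a1, which degrades retinoic acid, ranked 25752 and 29851 in KO1 and KO15, against 97182 in CM59 and no peak in CM69.

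The lists of other cell types and the controls had 4 gained (6.35%) and 4 lost (6.35%) of 63 for extraembryonic endoderm, 3 (3.53%) and 4 (4.71%) of 85 for trophoblast, 5 (5.62%) and 5 (5.62%) of 89 for fibroblasts and feeder cells, and 2 (3.51%) and 0 of 57 for housekeeping genes. The gained shares of extraembryonic endoderm and fibroblast genes were thus about that of the Wnt pathway list. Cubn, an endocytic receptor, had 3 of the lost and Col1a2, a collagen gene, 2. Germline genes known to be silenced by DNA methylation had 0 gained and 0 lost of 27 regions, and imprinted genes had 4 gained (4.44%) and 0 lost of 90. Among 9 TET and DNMT genes, 1 region was gained (1.72%), at Tet2, and 4 were lost (6.90%) of 58. In 12 marker lists of an embryo atlas that the study had used, gained shares ran between 1.28% (non-neural ectoderm) and 3.85% (mesoderm) and lost shares between 2.60% (primordial germ cells) and 5.65% (ectoderm). The atlas list of the primitive streak had 8 gained (3.36%) and 10 lost (4.20%) of 238 regions, so the excess at streak regulators was not seen in these markers.

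Tet1 itself, on the minus strand of chromosome 10, had 2 lost and 0 gained of 11 regions. The intronic region at chr10:62884128-62884461 had no deposited peak in KO1 or KO15 and ranked 36881 in CM59 and 44274 in CM69, with fold enrichments of 4.26 and 3.84. A second intronic region, at chr10:62855022-62855378, ranked 72275 and 66550 in KO1 and KO15, against 45300 and 45127 in CM59 and CM69. The region 114 bp from an annotated Tet1 start site within the gene was open in all 4 libraries. It ranked 17101 and 18659 in KO1 and KO15, against 14942 and 23340 in CM59 and CM69. ATAC-seq peaks give no level of the Tet1 transcript or protein, so neither label could be checked that way.

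Over all 16 libraries, few regions followed the lines whatever the day or treatment. In all, 23 regions were open in all 6 KO-line libraries and in none of the 4 MUT libraries, 5 of them on Y, and 29 were open in all 4 MUT libraries and in none of the 6 KO-line libraries. Of these 29, 3 were open in all 6 WT libraries, CHIR-treated ones included, namely the Tet1 intron region, a region near Aldh8a1 and 1 more on another chromosome.

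The strongest gained regions were taken among those without any MUT peak, by the weaker of both KO ranks. The first 3 and the ninth lay on Y. Ddx3y, which encodes an RNA helicase, had promoter peaks at ranks of 8486 and 14296 in KO1 and KO15, and Uty, which encodes a histone demethylase, at 8533 and 15516. The others were a region whose nearest coding start site is that of Lrmda (106041 bp away, ranks of 4808 and 16824 in KO1 and KO15), one 152046 bp from Zfp326, one 10692 bp from Ctnnd2 (ranks of 3764 and 18210), and regions near Auts2, Gm6657 and L1td1. The regions near Lrmda, Zfp326, Ctnnd2 and L1td1 were open in both CHIR libraries and in no other library outside the comparison, whereas that near Auts2, at ranks of 20990 and 19130, was open in 0 of the 12. Ctnnd2 encodes a δ-catenin and L1td1 a protein of pluripotent cells that binds RNA.

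Strongest among the lost regions was that 50874 bp from Aldh8a1, an aldehyde dehydrogenase gene, with no KO peak and ranks of 11346 in CM59 and 24617 in CM69. It was open in every WT, MUT and CHIR library and in 0 of 4 KO-line libraries outside the comparison. The regions near Hs6st1, Dglucy, Dst and Alk were open in both MUT libraries of day 2 and in both WT libraries of each day, and in neither CHIR library. The Dst region, 976 bp from an annotated start site of this cytoskeletal linker gene, ranked 38997 and 34064 in CM59 and CM69. Msantd3, Emid1, Sh3glb1, Fgf4 and Cacng8 completed the 10.

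**Figure D4:**
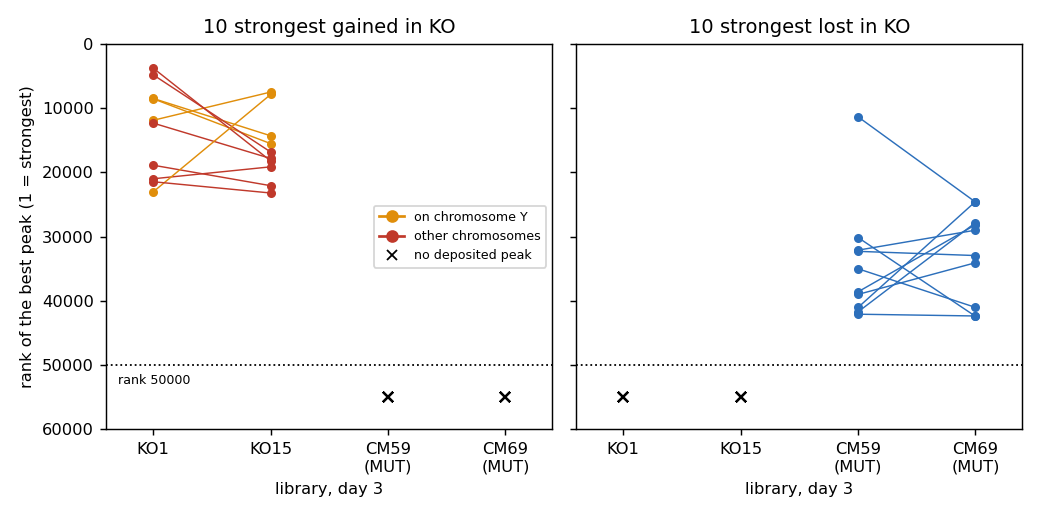
Rank of the best peak (y axis, strongest at the top) in the 4 day 3 libraries for the 10 strongest gained regions (left, orange on chromosome Y) and the 10 strongest lost regions (right, blue); lines join a region, crosses mark no deposited peak, the dotted line is rank 50000. Gained regions rank between 3764 and 23206 in the KO libraries and lost regions between 11346 and 42410 in the MUT libraries.

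Outside the lists, Med13l, a subunit gene of the Mediator kinase module, had the most gained regions, 5 of 23, with 1 lost. Arl15, a small GTPase gene, Tanc1, a synaptic scaffold gene, and Tmem121 had 4 each, and Tanc1 also had 3 lost. 1700020N01Rik, 2900026A02Rik, Agbl1 and Akap1 had 3 each. Nuak1, an AMPK-related kinase gene, had 5 lost of 15 regions and 0 gained. Etl4, Schip1, Sfmbt2 and Tenm2 had 4 lost and 0 gained, Erc2 4 lost and 1 gained, and Tns1, which encodes the focal adhesion protein tensin, 4 lost and 2 gained. Amotl2, a Hippo pathway scaffold gene, had 3 lost of 16.

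By position, 78.2% of gained and 74.7% of lost regions lay over 3 kb from any annotated start site, against 70.0% of regions of the mixed pairings and 59.1% of all regions. The difference of 3.49 points between gained and lost was −0.52 without CM69. In base composition the gained and lost regions had median GC contents of 50.2% and 50.8% and a median of 0.997 CpG per 100 bp in both, against 53.5% and 1.66 over all regions. By chromosome, the gained share lay between 2.31% and 4.15% outside Y, and the lost share between 2.72% and 4.12%.

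Gained and lost regions carried different sequences. In windows of 301 bp, the T-box sequence was found in 12.9% of gained and 4.03% of lost regions, against 5.83% of all regions. The forkhead sequence stood at 9.002% of gained, 3.76% of lost and 3.88% of all regions, the TCF/LEF sequence at 8.11%, 4.28% and 5.01%, the GATA sequence AGATAA at 15.1%, 10.2% and 9.92%, and the ZIC sequence CCTGCTG at 27.5%, 20.5% and 21.0%. The order was reversed for TEAD, at 16.4% of gained, 32.4% of lost and 18.4% of all regions, and for AP-1, at 9.47%, 24.2% and 11.8%. The SOX sequence was above all regions in both, at 26.6% of gained and 30.3% of lost regions, against 22.2%. Distal regions alone gave the same order, with the T-box sequence in 13.3% of gained and 4.23% of lost and the AP-1 sequence in 9.92% and 26.1%.

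The gained minus lost difference kept its sign for T-box, forkhead, GATA, ZIC, TEAD, AP-1 and SOX in all 11 alternative settings. That of TCF/LEF did so in 10, the exception being 8.57% of gained and 9.09% of lost regions where closed meant no peak, a setting with 33 lost regions. In the 731 gained regions that both CHIR libraries held and both WT libraries of day 3 lacked, the T-box sequence was found in 20.8% and the TCF/LEF sequence in 14.1%. Over all gained regions these stood at 12.9% and 8.11%. The forkhead sequence was found in 9.58% of the 731, close to its 9.002% of all gained regions. In the 953 lost regions that both WT libraries of day 3 held and both CHIR libraries lacked, the TEAD sequence was found in 41.4% and the AP-1 sequence in 19.3%. Over all lost regions these stood at 32.4% and 24.2%, so TEAD was more and AP-1 less frequent in this subset. Regions are not replicates, so these shares carry no test, and a match is not a bound site.

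**Figure D5:**
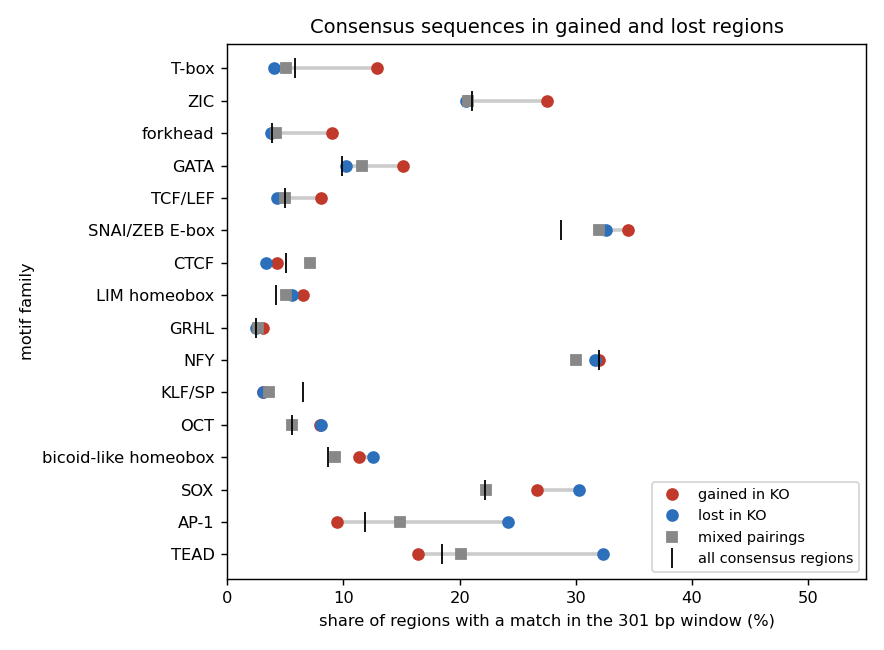
Share of regions with a match to each consensus sequence in a 301 bp window (x axis, percent) for gained (red), lost (blue) and mixed-pairing regions (grey squares) and all consensus regions (black ticks). The widest differences are at T-box (12.9% gained, 4.03% lost), TEAD (16.4% and 32.4%) and AP-1 (9.47% and 24.2%).

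Shares over all 50000 kept regions of a library use no call, but for day 3 KO and MUT they come from the peak lists that gave the calls and include the gained and lost regions, so they are a description and no separate support. The T-box sequence was found in 5.65% and 5.20% of the regions of KO1 and KO15, against 4.65% and 4.45% in CM59 and CM69, and in 4.42% and 4.58% in WT cells on day 3. The forkhead sequence was found in 4.42% and 3.92% in KO and in 3.59% and 3.44% in MUT. TEAD stood at 17.7% and 17.0% in KO1 and KO15 and at 19.7% and 18.8% in CM59 and CM69. For AP-1 the values were 10.96% and 10.8% in KO and 13.5% and 12.6% in MUT, while WT cells on day 3 had 10.7% and 12.8% and overlapped with both. Comparing 2 libraries with 2 allows no p below 0.333. In XAV-treated KO cells the T-box sequence was found in 4.44% and 4.39%, below untreated KO cells of day 3, and with CHIR in 6.84% and 6.77%, above untreated WT cells. The forkhead sequence did not rise with CHIR. It stood at 3.32% and 3.30% there, against 3.38% and 3.36% in untreated WT cells on day 3. In XAV-treated KO cells it was found in 3.48% and 3.37%.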

How the data were processed

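ATAC-seq peak lists of 16 libraries were used, 2 in each of 8 groups. The deposited lists were made by the authors with the ENCODE ATAC-seq pipeline on mm10 and give the fold enrichment (a ratio to background), −log10 p and −log10 q of each peak. They reach down to a −log10 p of 2, with aligner and caller versions not given in the sources used here. Per the processing notes of the submitters, tools included DiffBind 3.0.15, HOMER 2 and deepTools 3.4.3. Files of day 2 replicate 2 are marked as merged. Deposited lists of the authors' differential regions hold their own comparisons and were not used.

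Peaks with several summits were reduced to distinct regions, and the 50000 with the highest −log10 p were kept. Peaks of equal −log10 p were ordered by chromosome and position, so a tie at rank 50000 was cut by position. Windows of 150 bp on either side of the summit were merged over libraries, and consensus regions held by at least 2 libraries were retained (median width 342 bp). Overlap of 1 bp or more with a kept region made a consensus region open, and rank 1 is the strongest peak. Regions were assigned to the nearest start site of a protein-coding gene within 100 kb (GENCODE M21, same coordinates as mm10) and called distal over 3 kb from any start site. Distances and the sides upstream and downstream refer to that nearest start site, which can be an internal one of the gene. Sequence windows were 301 bp around the region's centre, searched on both strands. Read depth is unknown, so no count model or interval was possible. Occupancy was compared by two-sided exact permutation tests over libraries with Benjamini-Hochberg adjustment over 4 tests (Python 3.11.15, NumPy 2.4.6, SciPy 1.17.1, Matplotlib 3.10.9), and the code was tested on simulated data.

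The members, the 18 gene lists (279 genes), the 12 atlas lists of the study and the motifs were chosen with earlier results of these data known. Genes were named by a rule that took list genes with the most gained or lost regions, the 10 strongest regions per direction without a peak in the other genotype the 8 genes outside the lists with most calls in each direction, and Tet1. List genes with a single call that the rule's limit of 30 per direction left out were named after their values were seen, and 1 list gene is not reported here by name. Alternatives were 30000 or 75000 kept regions, a −log10 q of at least 2, overlap of 50% of the region, a consensus of the 4 libraries, closed as no deposited peak, each library left out, and gene windows of 10 and 500 kb. Leaving out chromosome Y was chosen after the data were seen.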

Additional observations from a re-analysis of the deposited data

Results flagged for a closer look

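The share of kept regions with the forkhead sequence TGTTTAC moved in opposite directions between KO and MUT on the 2 days. On day 3 it was higher in KO by 0.656 percentage points (4.42% and 3.92% in KO1 and KO15, 3.59% and 3.44% in CM59 and CM69). On day 2 the difference was −0.117 points (3.38% and 3.35% in KO, 3.51% and 3.46% in MUT). The WT libraries of day 2 had 3.41% and 3.27%, and both KO values of that day lay between them. The day 2 difference was thus small beside the spread of 1 group. All libraries of a genotype lay on the same side on each day, and the difference between the days was not tested.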

How the results depend on the processing

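Keeping 30000 regions gave 1433 gained and 1568 lost, and 75000 gave 4028 and 4672. A −log10 q of at least 2 gave 6603 lost, and closed as no deposited peak gave 245 gained and 33 lost. Leaving out 1 library gave 4236 to 5302 gained and 4959 to 5985 lost, since calls then rest on 3 libraries. The gained-region difference between KO-line and other libraries was 6.66 points with −log10 q of at least 2 (exact p = 0.381), 0.612 with no deposited peak (exact p = 0.414) and 4.04 to 4.57 with a library left out, where CM59 ended the call (exact p = 0.0524). That of the lost regions passed the threshold with 30000 regions (−8.31 points, exact p = 0.0381) and with no deposited peak (−18.7, exact p = 0.00952), and was −5.78 to −5.38 with a library left out, passing without CM59 (exact p = 0.0190). The cause of these shifts was not tested. The sign of gained minus lost turned for the Wnt (−0.66 points), Nodal (−0.4) and BMP (−0.75) lists with −log10 q of at least 2, for the TCF/LEF sequence (−0.52) with no deposited peak and for the distal share (−0.52) without CM69, and lists near 0 turned too (mesoderm −4.35 to 4). With −log10 q of at least 2 mixed pairings exceeded both counts. Among main comparisons, none of which changed sign, 45 values kept their side of the threshold or, for counts, stayed within 1.5 times, 15 moved further, 3 crossed to significance and 3 lost it. No paired analysis was possible because the labels give the KO and MUT lines no shared numbers. With 2 libraries a group and depth unknown, absence of a peak does not show closed chromatin.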
